A study of Mus musculus with 4 samples.

Results

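Clusters of HIV vector integration sites made with the mutant full-length TAF3 fusion (Full M880A) were singled out where neither wild-type fusion had placed a site. A cluster was a run of at least 3 distinct Full M880A positions, both strands pooled, in which neighbours lay at most 1000 bp apart. Each cluster was widened by 500 bp on either side, and it was kept when that stretch held no site of the full-length wild-type library (Full WT) and none of the wild-type PHD library (PHD WT). Of 978 Full M880A clusters, 168 met this rule (17.2%), and they are called WT-free below. The other 810 are called WT-holding. The clusters were thus chosen by the sites of Full M880A, Full WT and PHD WT, and the counts of these libraries inside them are a description and support nothing. The fourth library, the PHD domain with the same substitution (PHD M880A), took no part in the choice.

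The assay, HIT-seq, reads out where a chromatin protein sits through the integration of an HIV-based luciferase vector. All 4 groups used Psip1-/- mouse embryonic fibroblasts (MEF) of strain C57BL/6, which lack LEDGF/p75, the usual anchor of HIV integrase on chromatin. They were nucleofected with plasmids for TAF3 joined to the integrase-binding domain of LEDGF, enriched for GFP-positive cells by sorting, and given 500 ng of pseudotyped vector. The groups were Full M880A, PHD M880A, Full WT and PHD WT, with 1 library each. The fusion protein was transiently expressed from a plasmid, and the labels name no change to the cells' own Taf3.

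TAF3 is a subunit of TFIID, the general transcription factor that places RNA polymerase II at promoters. Its PHD finger, a small zinc-binding module, reads trimethylation of lysine 4 on histone H3, which marks active promoters, and M880A is a substitution in this finger that is known to weaken the binding. The full-length protein also carries a histone-fold domain, through which it joins the other TFIID subunits, whereas the PHD fragment lacks it. HIV integrase without a tether favours open, transcribed chromatin in general. The design asks how placement depends on the finger and on the rest of the protein. The WT-free clusters are places where sites of the full-length mutant recurred, with or without the mutant PHD domain, and WT sites were not listed.

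The Full M880A list held 39292 distinct positions, the PHD M880A list 34888, the Full WT list 22486 and the PHD WT list 25363. The lists came from 3651264, 2085037, 2119983 and 2228958 reads in the same order. The 2 WT lists together held 47849 positions, and absence from them depends on their length. By the read names, 3 libraries ran together on 1 flow cell and Full WT ran on another, so sequence and flow cell cannot be told apart between Full M880A and Full WT. With 1 library per group, no difference could be set against a spread between replicates, and no test was run. The 95% intervals are exact and were computed on counts of sites, gaps or clusters. They cover counting error only, and no spread between libraries. Reads were amplified by PCR, without molecular identifiers, and cannot be counted as molecules. Coordinates are mm9 and positions count from 1. No mm9 genome or annotation was used here, so neither genes nor sequences are assigned to the clusters.

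The WT-free clusters were small. Together they held 607 Full M880A sites, against 4029 in the WT-holding clusters and 34656 outside clusters. Of the 168, 121 had exactly 3 sites, 18 had 4, 19 had 5, 6 had 6, and the remaining 4 had 9, 10, 11 and 11. The share of clusters that were WT-free was 26.8% at 3 sites (121 of 451), 9.42% at 4 (18 of 191), 15.8% at 5 (19 of 120), 7.41% at 6 (6 of 81) and 2.96% at 7 or more (4 of 135). From the first to the last site they spanned a median of 836 bp (range 5 to 3962), and the WT-holding clusters a median of 1051 bp (19 to 6185). With the added 500 bp they covered 314 kb, or 0.0122% of the 2570 Mb between the outermost sites of the chromosomes. Both the number of sites and the span were thus lower in the clusters that the rule selected. The number of WT-free clusters moved with the settings: there were 83 when 10 reads were required per site in all libraries, 279 were found with no widening and 70 with 5000 bp on each side.

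The fullest WT-free cluster lay on chromosome 10, positions 127051438 to 127054851, and held 11 Full M880A sites, 5 on the plus and 6 on the minus strand. Their reads were 22, 422, 155, 290, 2, 26, 7, 2, 52, 4 and 303 in order along the chromosome, so that no single position carried the cluster and the highest held 32.8% of its 1285 reads. The region lay beside WT sites and not far from them. The nearest PHD WT site was 914 bp and the nearest Full WT site 1598 bp from its edge, and the 3765 bp between it and the next WT-free cluster (127058616 to 127059430, 3 sites) held 14 WT sites. This gap also held 1 PHD M880A site and 5 further Full M880A sites. These 5 sites formed a WT-holding cluster (127056572 to 127057164), with 4 Full WT and 8 PHD WT sites in its widened region. The nearest PHD M880A site was 656 bp away, just outside the widened region.

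Another cluster of 11 sites lay on chromosome 2, positions 30572494 to 30575734. Its reads were 9, 63, 2, 39, 14, 5, 21, 264, 57, 114 and 111, with 7 sites on the plus and 4 on the minus strand. The nearest Full WT site was 4169 bp away, the nearest PHD WT site 12740 bp and the nearest PHD M880A site 37012 bp. This cluster had a close counterpart on the other side of the rule. The Full M880A cluster directly before it on the chromosome, positions 30562948 to 30566065, also held 11 Full M880A sites, with 1332 reads. That cluster was left out because of 1 Full WT site that had 2 reads, the lowest number in the lists.

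On chromosome 10, positions 79628789 to 79629858 packed 10 Full M880A sites into 1070 bp, the highest number among WT-free clusters of under 2000 bp. Their reads were 5, 120, 12, 32, 25, 64, 36, 120, 94 and 180. It was the middle one of 3 nearby WT-free clusters. The WT-free cluster before it (79621559 to 79621925) had 5 sites and ended 6864 bp before it. The WT-free cluster after it (79635291 to 79636575) had 3 sites and began 5433 bp further on. The first gap held 2 WT sites and the second gap none, while Full M880A had 9 and 2 further sites there. Of the 9, 8 formed a WT-holding cluster (79624572 to 79627480), with 1 Full WT and 1 PHD WT site. PHD M880A had no site in either gap, and its nearest site to the middle cluster was 19228 bp away.

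The widest WT-free cluster differed from these in its surroundings. On chromosome 2, positions 152751346 to 152755307 held 9 Full M880A sites, 3 on the plus and 6 on the minus strand, with 2, 43, 15, 51, 21, 407, 60, 105 and 49 reads. The nearest PHD WT site was 51001 bp away, the nearest Full WT site 75957 bp and the nearest PHD M880A site 28953 bp. Between 0.5 and 50 kb from its edges, on both sides, there were 1 Full M880A and 3 PHD M880A sites and no site of Full WT or PHD WT. It was the only one of the 10 fullest clusters with no WT site within 50 kb.

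The other 6 of the 10 fullest clusters had 6 Full M880A sites each. They lay on chromosome 9 (22194336 to 22194834), chromosome 15 (78663556 to 78664534, and 98607615 to 98609765), chromosome 10 (116586338 to 116587550), chromosome 19 (12870929 to 12872516) and chromosome 4 (140255913 to 140257219). Of these, the chromosome 9 cluster was the shortest, at 499 bp, and it was the one in which every site had at least 37 reads (97, 37, 46, 43, 50 and 180). In contrast, the chromosome 4 cluster had 1 site with at least 10 reads (42), and its other sites had 7, 2, 2, 3 and 4. All 10 clusters had sites on both strands.

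**Figure D1:**
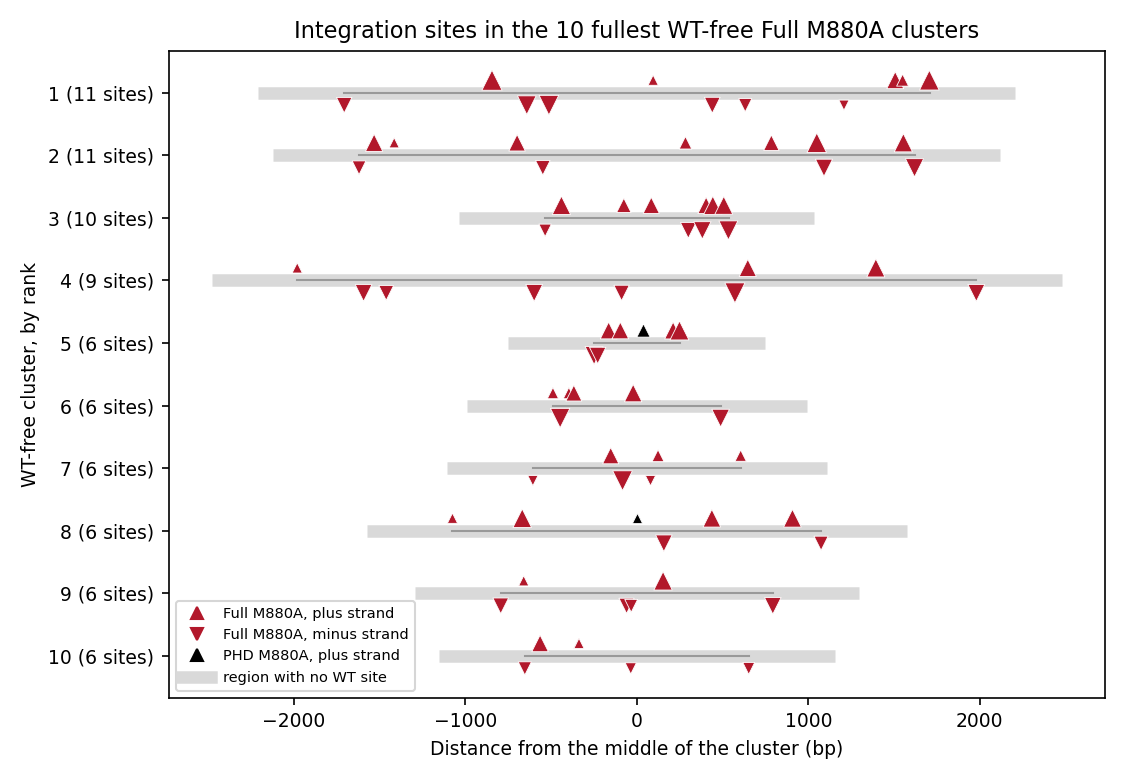
Positions of the integration sites in the 10 WT-free clusters with the most Full M880A sites, drawn to scale from the middle of each cluster (bp). Each triangle is a site (up for the plus strand, down for the minus strand), its area grows with the logarithm of its reads, and the grey bar is the widened region, in which the WT libraries had no site; the clusters numbered 5 and 8 hold 1 PHD M880A site each (black).

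The PHD M880A library took no part in the choice, but its counts are not thereby free of it. The WT-free clusters were shorter, with a median span of 836 bp against 1051 bp. Whether span or local site density accounted for the differences below was not tested. Of the 168 WT-free clusters, 17 held at least 1 PHD M880A site, 10.1% (6.01 to 15.7), against 281 of the 810 WT-holding clusters, 34.7% (31.4 to 38.1). Over all 978 clusters the share was 30.5%. These intervals did not overlap. With 5000 bp added on each side in place of 500 bp the shares were 25.7% and 64.4%. Size differed between the 2 kinds of cluster, and among WT-holding clusters the share with a PHD M880A site was highest, 56.5%, at 7 or more sites. Among clusters of exactly 3 sites, where the share over both kinds was 22.4%, it was 9.09% (4.63 to 15.7) of the 121 WT-free ones and 27.3% (22.5 to 32.4) of the 330 WT-holding ones. At 5 sites it was 5.26% (0.133 to 26.0) of 19 and 34.7% (25.5 to 44.8) of 101, with intervals that just met. At 4 and 6 sites the intervals overlapped, with 3 of 18 against 48 of 173 and 2 of 6 against 34 of 75. None of the 4 WT-free clusters of 7 or more sites held a PHD M880A site (interval up to 60.2%), against 74 of 131 WT-holding clusters (47.6 to 65.1%).

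**Figure D2:**
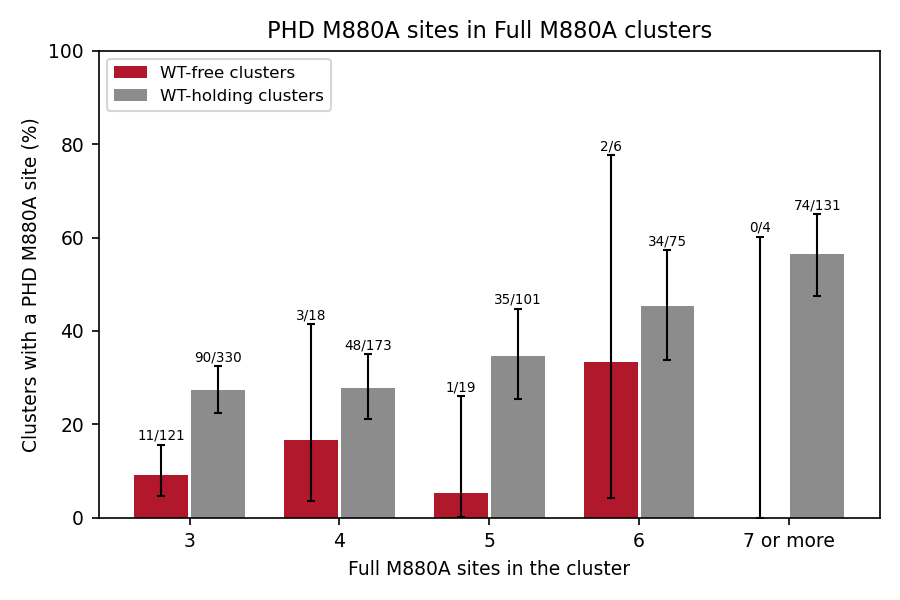
Percent of Full M880A clusters with at least 1 PHD M880A site, by the number of Full M880A sites in the cluster, for WT-free (red) and WT-holding (grey) clusters; numbers above the bars are clusters with such a site over all clusters, and error bars are exact 95% binomial intervals. The intervals stand apart at 3 sites (9.09% against 27.3%) and overlap at every larger size.

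In density, PHD M880A sites were more frequent inside the WT-free clusters than in flanks at least 5 kb away, but not clearly more than next to them. The 17 clusters held 23 PHD M880A sites, which is 73.2 per Mb, against 28.4 per Mb (404 sites) in the flanks from 5 to 50 kb, a ratio of 2.58 (1.61 to 3.92). Against the nearer flanks, from 0.5 to 5 kb, with 57.8 per Mb (82 sites), the ratio was 1.27 (0.760 to 2.03), and between 0.5 and 1 kb PHD M880A had 96.5 sites per Mb. The ratio against the farther flanks was 8.99 (8.14 to 9.92) in the WT-holding clusters, where PHD M880A had 280 sites per Mb inside and 31.1 per Mb in the flanks, and against the nearer flanks it was 3.25 (2.88 to 3.67). Set directly against each other, the density inside the WT-free clusters was 0.261 times (0.164 to 0.397) that inside the WT-holding ones. Around unclustered Full M880A sites with no WT site within 500 bp, PHD M880A had 25.6 sites per Mb, so the WT-free clusters were 2.86 times (1.80 to 4.33) as dense as these. The flanks of the unclustered sites from 5 to 50 kb were also sparser, at 15.5 per Mb. Against these flanks the ratio of the unclustered sites was 1.65 (1.54 to 1.77). The WT-free ratio of 2.58 fell to 1.21 (0.246 to 3.67) for clusters of at least 5 sites and to 1.37 (0.884 to 2.06) with 5000 bp added on each side. It was 1.89 (0.746 to 4.0) for clusters of at least 4 sites and 2.22 (0.878 to 4.71) when 10 reads were required per site, so the excess over the flanks was not resolved from counting error in these settings.

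A cluster on chromosome 6 contributed 4 of the 23 sites. Its 3 Full M880A sites lay on the plus strand at 103599177, 103599178 and 103599187, with 19, 7 and 2 reads. PHD M880A had sites at 103599178, 103599180 and 103599187 on the same strand, with 2, 7 and 11 reads, and at 103599211 on the minus strand, with 4 reads. The positions 103599178 and 103599187 were thus identical in both mutant libraries, and they were the only 2 of the 607 sites that were. Such positions made up 0.329% of the Full M880A sites in WT-free clusters and 0.199% (8 of 4029) in WT-holding clusters. No site of any library lay between 0.5 and 50 kb from the chromosome 6 cluster, and the nearest WT site was 150 kb away. Merging same-strand positions within 10 bp left 1 Full M880A site here. Without this cluster the density ratio was 2.12 (1.26 to 3.36).

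The next clusters by PHD M880A sites were of another kind, with well separated sites. On chromosome 8, positions 35210621 to 35211208 held 4 Full M880A sites with 139, 4, 71 and 6 reads. PHD M880A had 1 site between these positions (149 reads) and 1 before them, in the widened region (21 reads). On chromosome 17, positions 39982153 to 39983030 held 3 Full M880A sites (153, 5 and 24 reads) and 1 PHD M880A site (4 reads). The other PHD M880A site (19 reads) lay beyond them, in the widened region. On chromosome 6, positions 134848762 to 134849693 held 3 Full M880A sites (16, 43 and 2 reads) and 1 PHD M880A site (128 reads). The other PHD M880A site (150 reads) lay before them, in the widened region. In this cluster the mutant PHD domain had the more deeply read sites. On chromosome 3, positions 88293708 to 88294914 held 5 Full M880A sites with 48, 530, 30, 2 and 820 reads. The widened region there had 1 PHD M880A site with 38 reads, 422 bp before the first Full M880A site. The remaining 12 clusters with a PHD M880A site also had 1 each.

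Most WT-free clusters lay close to WT sites. The distance from the edge of a cluster to the nearest site of either WT library had a median of 2.84 kb (quartiles 0.964 and 12.7). For 45 of the 168 clusters (26.8%, 20.3 to 34.2) it was at most 1 kb, for 77 (45.8%, 38.1 to 53.7) at most 2 kb, and for 98 (58.3%, 50.5 to 65.9) at most 5 kb. Unclustered Full M880A sites that likewise had no WT site within 500 bp, 31066 in all, had a median distance of 31.2 kb, and 9.73% of them (9.40 to 10.1) had a WT site within 2 kb. The WT-free clusters were therefore nearer to WT sites than the unclustered sites were. This was not confined to the WT libraries. The nearest PHD M880A site was at a median of 7.16 kb from the WT-free clusters and 21.1 kb from the unclustered sites. It lay within 2 kb for 25.0% and 8.71% of them. Full M880A itself had 34.2 and 15.6 sites per Mb in their flanks from 5 to 50 kb. At the other end, 6 clusters (3.57%) and 6087 unclustered sites (19.6%) had no WT site within 100 kb. Full WT sites were at a median of 5.05 kb and PHD WT sites at 7.0 kb from the WT-free clusters. A WT-holding cluster of Full M880A sites lay within 10 kb of 38 of the 168 (22.6%), and another WT-free one within 10 kb of 13 (7.74%).

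**Figure D3:**
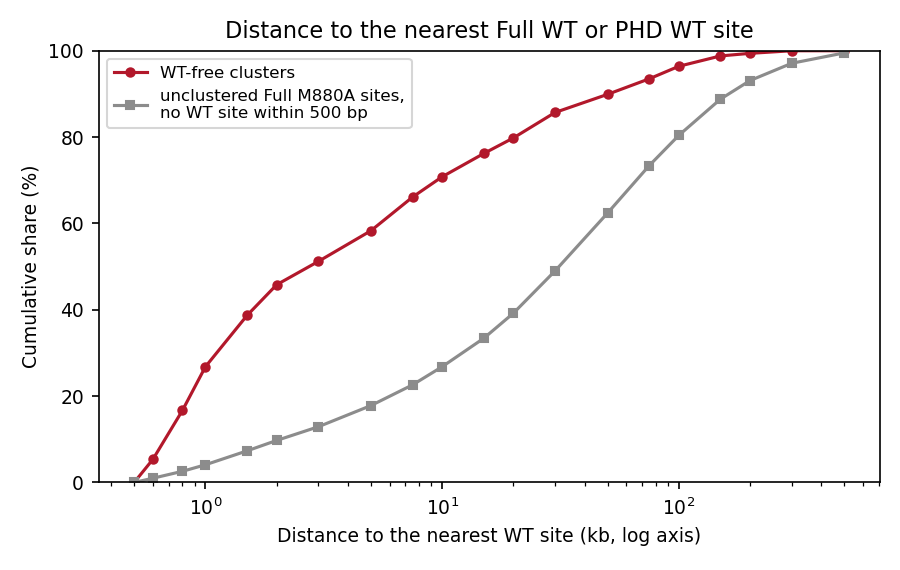
Cumulative percent of WT-free clusters (red circles, n = 168) and of unclustered Full M880A sites with no WT site within 500 bp (grey squares, n = 31066) whose nearest Full WT or PHD WT site lies within the distance on the log axis (kb). At 2 kb the curves stand at 45.8% and 9.73%, and at 50 kb at 89.9% and 62.4%.

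The density of WT sites around the WT-free clusters showed the same nearness. Between 0.5 and 5 kb from their edges Full WT had 93.1 sites per Mb and PHD WT 109, against averages of 8.75 and 9.87 per Mb over the span of the genome. Around the WT-holding clusters the densities were 136 and 175 per Mb. The ratio of WT-free to WT-holding was thus 0.685 (0.567 to 0.823) for Full WT and 0.622 (0.522 to 0.736) for PHD WT. The clusters had been split by the sites of these same libraries up to 500 bp from the edge. These near ratios are therefore not independent of the choice and are a description only. The flanks of the 2 kinds of cluster also overlapped. Of the 168 WT-free clusters, 56 lay within 50 kb of a WT-holding one. A site in a shared stretch counted on both sides. The intervals of all flank ratios between the 2 kinds, here and below, do not allow for this. From 5 to 50 kb the order turned: Full WT had 32.6 sites per Mb around WT-free and 28.8 around WT-holding clusters, a ratio of 1.13 (1.02 to 1.26), and PHD WT 34.6 and 29.2, a ratio of 1.19 (1.07 to 1.31). This turn was small, and the intervals of both libraries held 1 after same-strand positions within 10 bp were merged (1.07, 0.958 to 1.20, and 1.11, 0.988 to 1.24) and when 10 reads were required per site (1.14, 0.979 to 1.33, and 1.02, 0.861 to 1.21). With at least 4 sites per cluster the ratios were higher, at 1.43 (1.22 to 1.67) for Full WT and 1.25 (1.05 to 1.47) for PHD WT. Between 50 and 100 kb the ratios were again under 1, at 0.897 (0.800 to 1.00) for Full WT and 0.786 (0.699 to 0.881) for PHD WT, so that the ratios over 5 to 100 kb, 1.07 (0.993 to 1.16) and 1.03 (0.952 to 1.11), pool both directions. Around the unclustered WT-free sites Full WT had 9.70 and PHD WT 10.8 sites per Mb between 5 and 50 kb.

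Full M880A itself had 34.2 sites per Mb from 5 to 50 kb around the WT-free clusters and 33.5 around the WT-holding ones, a ratio of 1.02 (0.922 to 1.13), outside any cluster. For PHD M880A the densities were 28.4 and 31.1, with a ratio of 0.913 (0.818 to 1.02). At this distance the intervals of both ratios held 1. Nearer, from 0.5 to 5 kb, PHD M880A had 57.8 sites per Mb around WT-free and 86.1 around WT-holding clusters, a ratio of 0.672 (0.527 to 0.848), whereas Full M880A had 93.8 and 102, a ratio of 0.916 (0.755 to 1.10). Had the WT libraries filled the 314 kb of the WT-free clusters at the density of the flanks from 5 to 50 kb, they would have left 21.1 sites there, and at the density from 0.5 to 5 kb 63.4. At the average over the span it would have been 5.85. The rule fixed the number found at 0, so these values only describe how much WT signal the surroundings carried.

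**Figure D4:**
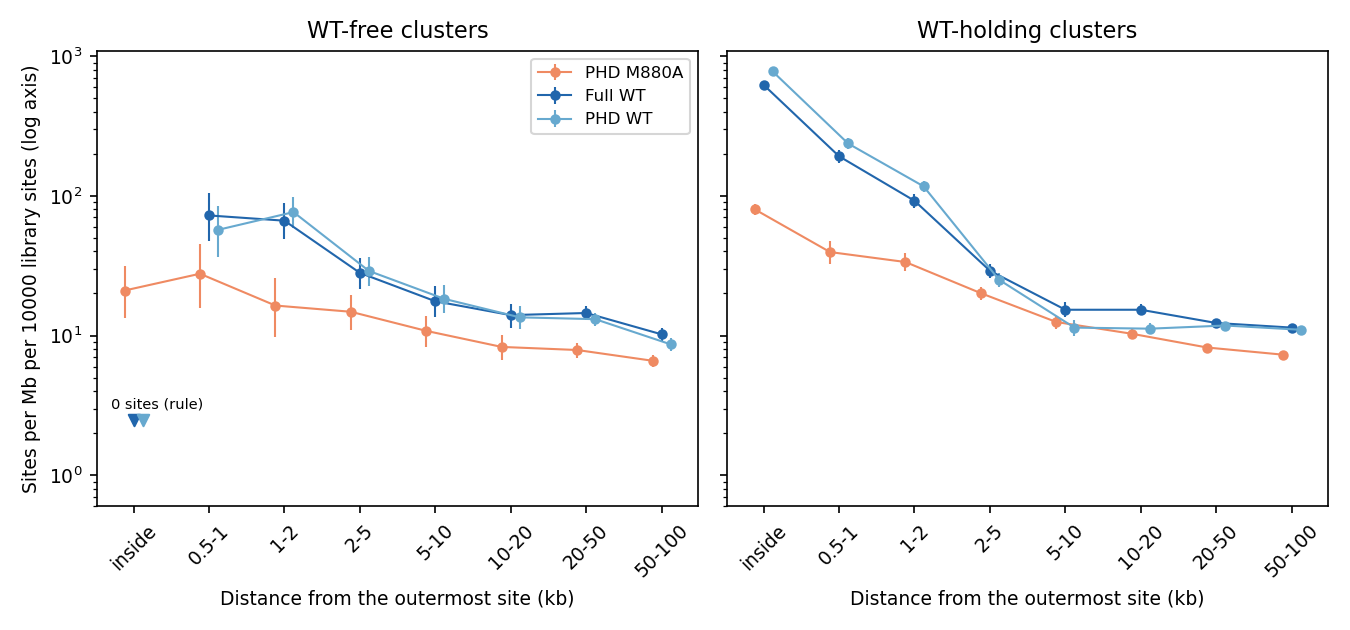
Density of PHD M880A (orange), Full WT (dark blue) and PHD WT (light blue) sites inside and at increasing distance from WT-free (left) and WT-holding (right) clusters, as sites per Mb for every 10000 sites of the library, on a log axis; bars are exact 95% Poisson intervals and other Full M880A clusters are left out of the flanks. The triangles mark the 0 WT sites that the rule demands; between 0.5 and 1 kb the WT-free clusters have 72.4 (Full WT) and 57.1 (PHD WT), and the WT-holding clusters 192 and 237.

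The WT-free clusters were also compared by how far away the nearest WT site lay. The 77 clusters within 2 kb of a WT site had more than 3 Full M880A sites in 28 cases (36.4%, 25.7 to 48.1), the 74 at over 2 and up to 50 kb in 17 (23.0%, 14.0 to 34.2), and the 17 at over 50 kb in 2 (11.8%, 1.46 to 36.4). Sites on both strands were present in 83.1%, 81.1% and 64.7% of them. A PHD M880A site was present in 12 of the 77 (15.6%, 8.32 to 25.6), 4 of the 74 (5.41%, 1.49 to 13.3) and 1 of the 17 (5.88%, 0.149 to 28.7). The intervals of the 3 classes overlapped in each of these measures. The 1 remote cluster with PHD M880A sites was the chromosome 6 cluster of identical positions described above.

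Some WT-free clusters rested on positions a few bp apart. Of the 439 gaps between neighbouring sites, 38 (8.66%, 6.20 to 11.7) joined same-strand positions at most 10 bp apart, against 123 of 3219 (3.82%, 3.19 to 4.54) in the WT-holding clusters. These intervals did not overlap, but they treat the gaps of a cluster as independent. The clusters that the rule selected also had a shorter span, and whether this accounted for the difference was not tested. When same-strand positions within 10 bp were taken as 1 site, 24 of the 168 WT-free clusters (14.3%, 9.37 to 20.5) had fewer than 3 sites left, against 29 of the 810 WT-holding ones (3.58%, 2.41 to 5.10). Nearly all of these had started with 3 sites, a size that was more common among WT-free clusters. Among clusters of 3 sites the shares were 19.0% (23 of 121, 12.4 to 27.1) and 8.79% (29 of 330, 5.96 to 12.4), with intervals that met. Of the WT-free clusters, 3 shrank to a single position. Whether such positions were separate integrations was not tested. At larger distances the classes were closer, with 191 WT-free gaps of over 100 and up to 500 bp (43.5%, 38.8 to 48.3) against 1577 (49.0%, 47.2 to 50.7), and the median gap was 256 bp against 239 bp.

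Reads per site were close in the WT-free clusters and elsewhere. The median was 25 reads per Full M880A site in the WT-free clusters (quartiles 4 and 83), 25 in the WT-holding clusters (5 and 86) and 24 outside clusters (5 and 90). At least 10 reads were found at 62.1% (58.1 to 66.0), 66.3% (64.8 to 67.7) and 65.1% (64.6 to 65.6) of the sites. The minimum of 2 reads was found at 14.8% (12.1 to 17.9) of the sites in WT-free clusters, 11.7% (10.8 to 12.8) in WT-holding clusters and 11.7% (11.4 to 12.0) outside clusters. For this share the interval of the WT-free clusters overlapped that of the WT-holding ones and lay just above that of the sites outside clusters. Every site had at least 10 reads in 37 WT-free (22.0%) and 154 WT-holding clusters (19.0%). At least 3 sites had so many in 58 WT-free (34.5%) and 472 WT-holding clusters (58.3%), which had more sites each. The plus strand held 310 of the 607 sites (51.1%, 47.0 to 55.1). Sites on both strands were found in 135 WT-free clusters (80.4%, 73.5 to 86.1) and in 687 WT-holding clusters (84.8%, 82.2 to 87.2), with 84.0% over all clusters.

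Every one of the 20 chromosomes with sites had at least 1 WT-free cluster. Chromosomes 10 and 11 had the most, 17 each, of 84 and 103 Full M880A clusters (20.2%, 12.3 to 30.4, and 16.5%, 9.92 to 25.1). Chromosome 18 had 1 of 12 (8.33%, 0.211 to 38.5), and chromosome 12 had 2 of 24 (8.33%, 1.03 to 27.0). The highest share was on chromosome 14, 5 of 15 (33.3%, 11.8 to 61.6), and the X chromosome had 5 of 18 (27.8%, 9.69 to 53.5). On none of the 20 chromosomes did the interval exclude the share over all clusters, so no chromosome stood out at this depth.

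Clusters just outside the rule were numerous. A single WT site was present in 111 clusters, a Full WT site in 60 and a PHD WT site in 51 of them, and 2 WT sites were present in 78. The fullest clusters with 1 WT site, after the one on chromosome 2 described above, had 9 Full M880A sites on chromosome 2 (93456495 to 93459958, 1 PHD WT site with 28 reads), 8 on chromosome 4 (133310235 to 133313201, 1 Full WT site with 94 reads), 7 on chromosome 1 (88367684 to 88369299, 1 Full WT site with 19 reads) and 6 on chromosome 12 (112667524 to 112668443, 1 Full WT site with 4 reads). None of these held a PHD M880A site. The share with a PHD M880A site was 10.1% (6.01 to 15.7) with 0 WT sites, 15.3% (9.18 to 23.4) with 1, 20.5% (12.2 to 31.2) with 2 and 25.4% (15.8 to 37.1) with 3. Neighbouring values in this order had overlapping intervals, while those of 0 and 3 WT sites did not overlap. Just inside the rule, 9 WT-free clusters had their nearest WT site over 500 and up to 600 bp from the outermost Full M880A site.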

How the data were processed

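Per the file headers, the authors deposited 1 list of paired-end integration sites per library, as BED intervals. The deposited score, 0 throughout, was left aside. The submitters' processing notes name the build mm9 and the tool MACS 1.4.2, without a role for it. For the aligner and the filters the sources used here give nothing. The whole number after each read name was taken as reads, from its values only, with a minimum of 2.

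The junction was the start plus 1 on the plus strand and the end on the minus strand, and equal junctions were collapsed. Clusters followed the rule in the report. Shares have Clopper-Pearson, densities Poisson and density ratios conditional binomial 95% intervals. Flanks ran from 5 to 50 kb beyond the outermost sites, without Full M880A clusters. The members and lists were chosen with earlier results of these data known, and unclustered sites as a comparison after their values were seen. The text names the 10 clusters with the most Full M880A sites, the 5 with the most PHD M880A sites, the 3 widest and the 5 fullest with 1 WT site, with neighbouring pairs added afterwards. Positions relative to genes had been planned and were not analysed here. Alternatives covered the joining gap, the minimum of sites and reads, merging, padding, autosomes, identical positions and flank width. The code was tested on simulated data. Calculations used Python 3.11.15, numpy 2.4.6, pandas 2.3.3, scipy 1.17.1 and matplotlib 3.10.9.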

Additional observations from a re-analysis of the deposited data

How the results depend on the processing

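Of 56 alternative values, 39 stayed within the interval of the value reported (for the number of clusters, within 1.5 times). The number of WT-free clusters, 168, was 47 with at least 4 and 29 with at least 5 sites per cluster, 83 among sites with at least 10 reads, 279 with no padding and 70 with 5000 bp of padding. It was 283 when only Full WT, and 263 when only PHD WT, had to be absent. Of the 168, 92 overlapped a WT-free cluster with a joining gap of 500 bp, 58 among sites with at least 10 reads and 143 after merging within 10 bp. The share with a PHD M880A site was 25.7% with 5000 bp of padding, against 64.4% of the WT-holding clusters, and it lay below that of the WT-holding clusters in every alternative run. The density ratio of 2.58 was 1.21 with at least 5 sites, 1.37 with 5000 bp of padding and 1.27 against flanks within 5 kb, a setting chosen after seeing the data. The WT-free to WT-holding ratio of flank densities reversed within 5 kb, at 0.685 for Full WT and 0.622 for PHD WT. It was 1.43 for Full WT with at least 4 sites per cluster. For PHD WT it was 1.03 from 5 to 100 kb and 1.02 among sites with at least 10 reads. Sites on both strands were in 89.4% of clusters of at least 4 sites. The causes were not tested. No paired analysis was possible because each group has 1 library, and no library could be left out for the same reason.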

Other observations

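The WT-free clusters with no WT site within 50 kb numbered 17. Besides the chromosome 6 cluster, 2 of them became 1 position when same-strand positions within 10 bp were merged. One lay on chromosome 2 (173180262 to 173180266), with 3 Full M880A sites in 5 bp, 794 reads and the nearest WT site at 78.6 kb. The other lay on the X chromosome (83320831 to 83320835), with 3 sites in 5 bp, 109 reads and the nearest WT site at 203 kb. Close pairs of WT-free clusters also occurred on chromosome 11, where 97298033 to 97299700 (5 sites) and 97301658 to 97302351 (4 sites) were 1958 bp apart, and 3271857 to 3272324 and 3274396 to 3274829 (3 sites each) were 2072 bp apart. No WT site lay between the members of either pair, where the rule had already barred WT sites within 500 bp of each member. These clusters were picked after their values were seen.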
